A study of Homo sapiens with 3 samples.

Results

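The genes described here are those of the mitochondrial genome, taken as every gene that the deposited count tables place on chromosome MT. There were 37 of them among 58735 genes, namely 13 protein-coding genes, 2 rRNA genes and 22 tRNA genes. They were measured by RNA sequencing in A549 cells, an established human lung adenocarcinoma line grown in F12K medium with serum. The libraries compared 3 kinds of cells that all carried a lentiviral pLKO.1 vector and had been selected with puromycin as stable lines: control cells (Control-sh), cells with one shRNA against DDX24 (DDX24-sh1) and cells with another (DDX24-sh2). DDX24 is a DEAD-box RNA helicase that the study examined as a splicing factor. The study's methods give the control as the empty vector and another place in the paper names a control shRNA, and which of these the library holds is not known. Each condition had 1 library, made from 4 μg of total RNA. No difference between conditions could therefore be tested, and every interval given below covers counting error only and not the spread between cultures.

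Values of the 3 libraries are given throughout in the order Control-sh, DDX24-sh1, DDX24-sh2, and log2 ratios to the control as the value of DDX24-sh1 followed by that of DDX24-sh2. The libraries held 17218884, 18337471 and 17847190 counts. DDX24 itself (ENSG00000089737, chromosome 14, 94048291 to 94081245 on GRCh38) had 2010, 637 and 765 counts, or 30.2% and 37.0% of the control level with the shRNAs. The log2 ratios to the control were -1.73 (95% interval -1.86 to -1.60) and -1.43 (-1.56 to -1.32), so both shRNA libraries carried less DDX24 RNA than the control. The shRNA names differed between the kinds of deposited values. FPKM, the count divided by gene length and library size, should give a constant per library when it is multiplied by gene length and divided by the count. For the control, 100% of 11962 genes with at least 50 counts lay within 1% of such a constant. For the shRNA libraries, 5.23% and 5.17% of genes did so with the names as given, and 100% did so when the FPKM of DDX24-sh1 was set against the counts of DDX24-sh2 and the reverse. That held for 23 of 23 and 20 of 20 mitochondrial genes with at least 50 counts. The data do not tell which naming is the true one, and the names are used below as the counts carry them.

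The A549 label was checked on marker genes. All 10 epithelial and A549 markers were detected, with a summed level of 21271, 20605 and 21227 CPM (counts per 1000000), and ALDH1A1, an aldehyde dehydrogenase abundant in A549, was the most abundant of them. EPCAM was low, at 32, 29 and 29 counts, and CDH1, the epithelial cadherin, had 538, 358 and 261 counts. Among markers of other cell types, the leukocyte gene PTPRC was at 0 in all 3 libraries and the endothelial gene VWF had 1, 0 and 1 counts. The collagen gene COL1A1 was the most abundant of those, with 139, 174 and 143 counts.

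The human mitochondrial genome is a small circular DNA present in many copies per cell. It encodes subunits of respiratory complexes I, III and IV and of the ATP synthase (complex V), together with the rRNAs and tRNAs that mitochondrial ribosomes need to translate them. Both of its strands are transcribed nearly end to end as long precursors, from which the tRNAs are cut out, and most mRNAs and rRNAs are released between these cuts, as in a string punctuated by tRNAs. Of the 37 genes, 28 lie on the plus strand of the reference and are transcribed from the heavy-strand promoter. The other 9, MT-ND6 and 8 tRNA genes, lie on the minus strand and are transcribed from the light-strand promoter. They are called heavy-strand and light-strand genes below. All other proteins of mitochondria, including most respiratory subunits and the whole transcription machinery, come from nuclear genes.

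The light-strand tRNA genes with at least 90 counts in the control are shown first, because together they held most of the tRNA counts. They are MT-TN, MT-TC, MT-TY and MT-TP, the tRNA genes for asparagine, cysteine, tyrosine and proline. MT-TL1, a heavy-strand gene, had more counts than MT-TY in each library. The 4 genes together held 1511 of 1886 tRNA counts (80.1%) in the control, 3337 of 3732 (89.4%) and 4065 of 5020 (81.0%). Their sequences are those of the GENCODE 29 transcripts on GRCh38, written 5′ to 3′ on the minus strand, with the anticodon in capitals. MT-TN lies at chrMT:5657-5729, MT-TC at chrMT:5761-5826, MT-TY at chrMT:5826-5891 and MT-TP at chrMT:15956-16023. MT-TC and MT-TY share 1 base, and 31 bases separate MT-TN from MT-TC.
MT-TN: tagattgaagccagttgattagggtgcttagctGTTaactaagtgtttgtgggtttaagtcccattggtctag
MT-TC: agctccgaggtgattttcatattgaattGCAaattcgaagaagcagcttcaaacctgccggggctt
MT-TY: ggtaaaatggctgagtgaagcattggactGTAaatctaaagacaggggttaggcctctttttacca
MT-TP: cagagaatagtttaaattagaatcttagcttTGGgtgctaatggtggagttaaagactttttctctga

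Mitochondrial genes took 4.36% of all counts in Control-sh (751346 counts), then 5.13% (939844 counts) and 7.04% (1255712 counts) with the first and the second shRNA. After scaling of the libraries, the log2 ratios to the control were 0.25 and 0.70, against a median over all 13985 genes that averaged 1 CPM or more of 0.0036 and 0.012. The 3 classes of genes were not raised by the same amount. Protein-coding genes took 3.44%, 4.09% and 5.88% of counts, with a log2 ratio of 0.27 (0.26 to 0.27) in DDX24-sh1 and 0.78 (0.78 to 0.79) in DDX24-sh2, or 1.20-fold and 1.72-fold. The rRNA genes took 0.916%, 1.01% and 1.13%, with a log2 ratio of 0.16 (0.15 to 0.17) and 0.31 (0.30 to 0.32), or 1.12-fold and 1.24-fold. The tRNA genes took 0.0110%, 0.0204% and 0.0281%, with a log2 ratio of 0.91 (0.83 to 0.99) and 1.37 (1.29 to 1.45). In both shRNA libraries the order of the ratios was thus tRNA, protein-coding, rRNA, and the counting intervals of the classes did not overlap within a library. In DDX24-sh1 the place of the tRNA class rests on MT-TN, MT-TC, MT-TY and MT-TP. The other 18 tRNA genes, summed, were level with the control there (interval -0.21 to 0.21). In DDX24-sh2 their sum had a log2 ratio of 1.30 (1.13 to 1.48). MT-TL1 alone held 224 of the 375 counts of that sum in Control-sh and 221 of 395 in DDX24-sh1. The 16 tRNA genes under 100 counts in each library had 107 and 144 counts there, summed, a log2 ratio of 0.35 (-0.02 to 0.73). There were 3.75, 4.04 and 5.23 protein-coding counts per rRNA count.

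**Figure D1:**
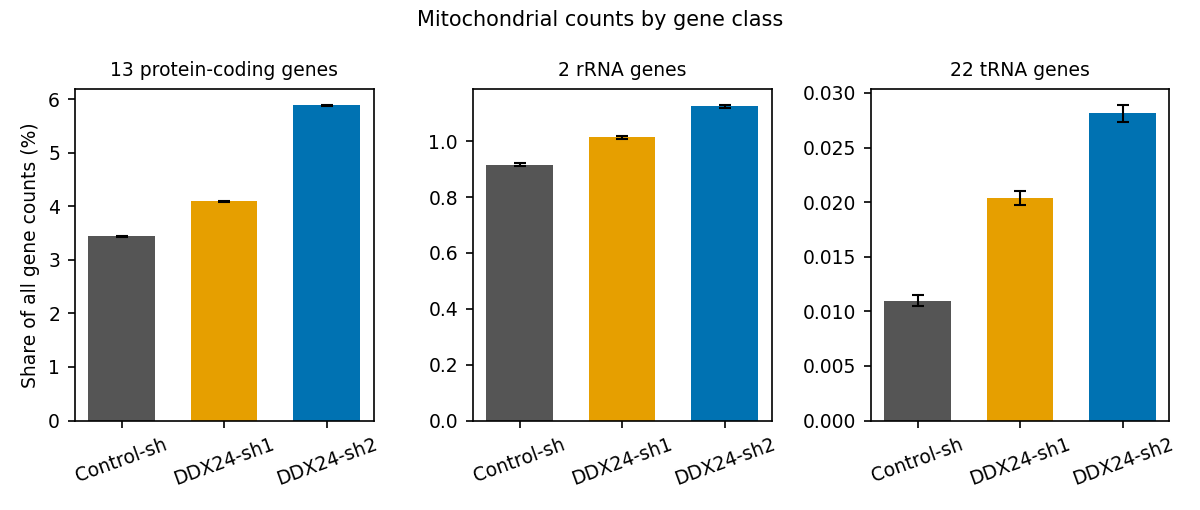
Share of all gene counts (%, bars from 0) held by the 13 protein-coding, 2 rRNA and 22 tRNA genes of the mitochondrial genome in the 3 libraries, with exact 95% binomial intervals that cover counting error only; each panel has its own scale. In every class Control-sh is lowest and DDX24-sh2 highest, from 3.44% to 5.88% for protein-coding genes, 0.916% to 1.13% for rRNA genes and 0.0110% to 0.0281% for tRNA genes.

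Of the 37 genes, 30 were above the control in DDX24-sh1 and 34 in DDX24-sh2, with the counting interval above 0 for 18 and 32 and below 0 for none. No share over all genes was taken for these counts over 37, so how unusual they are is not known. An average of 1 CPM or more was reached by 28 genes, namely all 13 protein-coding genes, both rRNA genes and 13 of 22 tRNA genes. In DDX24-sh1, 6 of these 28 were at least 1.5-fold higher than in Control-sh (21.4%), against a background of 8.16% of all genes. They were MT-ND6 and 5 tRNA genes, namely MT-TN, MT-TC, MT-TP, MT-TT and MT-TE. MT-TE had 4 and 10 counts in Control-sh and DDX24-sh1, with an interval from -0.55 to 3.37, and passed the filter only through DDX24-sh2. MT-TT rests on 3 counts in Control-sh. In DDX24-sh2, 24 of 28 were at least 1.5-fold higher (85.7%), against a background of 9.47%, and these were 11 protein-coding and 13 tRNA genes and neither rRNA gene. At least 1.5-fold lower were 2 genes in DDX24-sh1, the tRNA genes MT-TV and MT-TI, against a background of 7.59%, and none in DDX24-sh2, against 8.46%. At least 2-fold higher were 3 of the 28 in DDX24-sh1 (background 2.51%) and 12 in DDX24-sh2 (background 3.16%). The counting interval lay above 0 for 18 of the 28 in DDX24-sh1 and 27 in DDX24-sh2, against 25.9% and 27.3% of all genes. Such intervals narrow as counts rise, and 14 of the 28 averaged 100 CPM or more, against 2127 of the 13985 genes. These shares are thus not at like depth, and the excess cannot be read as a larger change. Of the 13 tRNA genes that passed the filter, 5 had under 1 CPM in Control-sh and passed only through the shRNA libraries. Among the 14 mitochondrial genes averaging 100 CPM or more, where counting error is small, 1 was at least 1.5-fold higher in DDX24-sh1 (7.14%, background 2.91%) and 10 in DDX24-sh2 (71.4%, background 2.68%). Both ratios use the same control library.

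The shRNA libraries were also set against each other, which does not use the control. All 13 protein-coding genes and both rRNA genes had more CPM in DDX24-sh2 than in DDX24-sh1, each with its counting interval above 0. The log2 ratio between them (second over first) was 0.52 for the protein-coding class (0.51 to 0.52), 0.14 for the rRNA class (0.13 to 0.15) and 0.46 for the tRNA class (0.40 to 0.52). At least 1.5-fold higher in DDX24-sh2 were 14 of the 28 genes against a background of 5.56%. The counting interval lay above 0 for 28, against 22.5%, and these shares are likewise not at like depth. Of these 28, 3 (MT-TD, MT-TG and MT-TE) had under 1 CPM in both other libraries and passed the filter only through DDX24-sh2. Among genes averaging 10 CPM or more the count was 6 of 20 (30.0%, background 1.78%), and among those averaging 100 CPM or more it was 3 of 14 (21.4%, background 0.564%). For the summed 37 genes, the log2 ratio between these libraries, both made with an shRNA against DDX24, was 0.45, while that of DDX24-sh1 to the control was 0.25. For the tRNA and rRNA classes it was the smaller of the same pair of ratios. DDX24 itself was 1.23-fold higher in DDX24-sh2 than in DDX24-sh1.

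Some RNAs kept in the nucleus moved with the libraries and are given here beside these results. MALAT1, a nuclear speckle RNA, had 958, 1261 and 2799 counts, or 1.25-fold and 2.83-fold the control level. NEAT1, the scaffold of paraspeckles, had 1852, 1921 and 4990 counts, or 0.985-fold and 2.61-fold. KCNQ1OT1, an antisense RNA of the KCNQ1 locus, had 45, 21 and 42 counts. MALAT1 and NEAT1 were thus highest in the library in which the mitochondrial share was highest, while NEAT1 in DDX24-sh1 did not differ from the control beyond counting error. The 7629 nuclear lincRNA genes together moved less, with 45993, 47305 and 54487 counts, or 0.976-fold and 1.15-fold the control level. Nuclear snRNA and snoRNA genes together had 473, 542 and 850 counts, nuclear rRNA genes 6, 17 and 27, and processed pseudogenes took 0.421%, 0.428% and 0.441% of counts. DDX24-sh2 also had most genes detected, 23900 against 22462 in Control-sh and 22965 in DDX24-sh1. The part of RNA quality, of library preparation or of the cells' content of mitochondria in these values was not tested. In bulk RNA, more mitochondria per cell and more RNA per mitochondrion cannot be told apart.

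Complex IV, cytochrome c oxidase, is the last enzyme of the respiratory chain, and its 3 mitochondrial genes encode its catalytic core. They made up most of the mitochondrial mRNA counts. MT-CO1 (chrMT:5904-7445), the subunit that reduces oxygen, had 175011, 229846 and 328644 counts, a log2 ratio of 0.32 (0.31 to 0.33) and 0.87 (0.86 to 0.87). MT-CO2, the subunit that receives electrons from cytochrome c, had 66795, 91583 and 121143 counts, a log2 ratio of 0.38 and 0.82. MT-CO3 had 92749, 117995 and 158196 counts, a log2 ratio of 0.27 and 0.73. The 3 genes were higher by similar amounts in each library. MT-CO1 had the most counts of all genes in Control-sh and DDX24-sh2, and in DDX24-sh1 it came after AKR1B1, an aldose reductase gene with 236561 counts. The number of mitochondrial genes among the 10 with most counts was 3, 4 and 5.

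The ATP synthase genes MT-ATP8 and MT-ATP6 overlap and are carried on a shared transcript. MT-ATP6, the membrane subunit that conducts protons, had 50617, 63073 and 94365 counts, a log2 ratio of 0.24 (0.23 to 0.26) in DDX24-sh1 and 0.86 (0.84 to 0.87) in DDX24-sh2. MT-ATP8, a small subunit of the same membrane part, had 140, 177 and 280 counts, a log2 ratio of 0.26 (-0.06 to 0.59) and 0.95 (0.66 to 1.26). Both genes thus had about the same ratio, although for MT-ATP8 the difference from the control in DDX24-sh1 was within counting error. Per length, MT-ATP8 was far below its partner, at 39.1, 46.9 and 75.8 FPKM (from the counts) against 4292, 5077 and 7768 for MT-ATP6. The genes share 46 bases, 22.2% of MT-ATP8, and how reads that touch both were counted is not given in the sources used here. The last 60 bases of MT-ATP8 (chrMT:8513-8572, plus strand, GRCh38) show the shared bases in capitals, which open with the start codon of MT-ATP6.
MT-ATP8: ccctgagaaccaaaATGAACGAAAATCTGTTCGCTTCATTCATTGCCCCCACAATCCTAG

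Complex I, NADH dehydrogenase, has 7 mitochondrial subunit genes, all of the membrane arm that pumps protons, and their ratios varied widely (0.03 to 0.87 with the first shRNA, 0.48 to 1.41 with the second). MT-ND1 had 28962, 37036 and 50918 counts (log2 ratio 0.28 and 0.77). MT-ND2 had 30599, 33173 and 53913 counts (0.04 and 0.77). MT-ND3 had 11837, 15082 and 18816 counts (0.27 and 0.63). In DDX24-sh2 MT-ND1 and MT-ND2 lay within the range of the complex IV genes and MT-ND3 lay below it, while MT-ND2 in DDX24-sh1 was close to the control. MT-ND4L and MT-ND4, which overlap by 7 bases and share a transcript, had ratios of 0.03 (-0.01 to 0.07) and 0.08 (0.07 to 0.10) in DDX24-sh1, and of 0.48 and 0.66 in DDX24-sh2. Their counts were 9536, 10228 and 13749 for MT-ND4L and 65725, 73284 and 107027 for MT-ND4. The small ratios of MT-ND4L and MT-ND2 in DDX24-sh1 came down to 0.0012 and 0.017 with libraries scaled by TMM on all genes.

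The remaining complex I genes stood above all other mRNAs in both shRNA libraries. MT-ND5 (chrMT:12337-14148), the longest of the 13, had 14976, 23586 and 36723 counts, a log2 ratio of 0.58 (0.55 to 0.61) and 1.25 (1.22 to 1.28). MT-ND6 (chrMT:14149-14673), the protein-coding gene of the light strand, had 3858, 7439 and 10564 counts, a log2 ratio of 0.87 (0.82 to 0.93) and 1.41 (1.36 to 1.46), or 1.83-fold and 2.66-fold. The genes lie next to each other on opposite strands, with no base between them. Whether the counting used strand is not given in the sources used here, and without it reads from MT-ND6 and from transcripts of the other strand across it cannot be told apart. The count of MT-ND6 per count of MT-ND5 was 0.258, 0.315 and 0.288.

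MT-CYB (chrMT:14747-15887), cytochrome b and the mitochondrial subunit of complex III, had the lowest ratio of the 13 mRNAs in DDX24-sh2, while in DDX24-sh1 MT-ND4L, MT-ND2 and MT-ND4 were lower. It had 40922, 47741 and 55554 counts, a log2 ratio of 0.15 (0.13 to 0.17) in DDX24-sh1 and 0.40 (0.38 to 0.42) in DDX24-sh2. MT-CYB lies downstream of MT-ND5 on the same strand, and their ratio of counts went from 2.73 (2.68 to 2.78) in the control to 2.02 (1.99 to 2.06) and 1.51 (1.49 to 1.53). This ratio is taken within a library and so does not depend on the scaling. MT-ND5 against MT-ND4, its neighbour upstream, went from 0.228 to 0.322 and 0.343. No mRNA fell below the control in either library, and in DDX24-sh2 MT-CYB and MT-ND4L were the mRNAs that stayed under 1.5-fold.

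**Figure D2:**
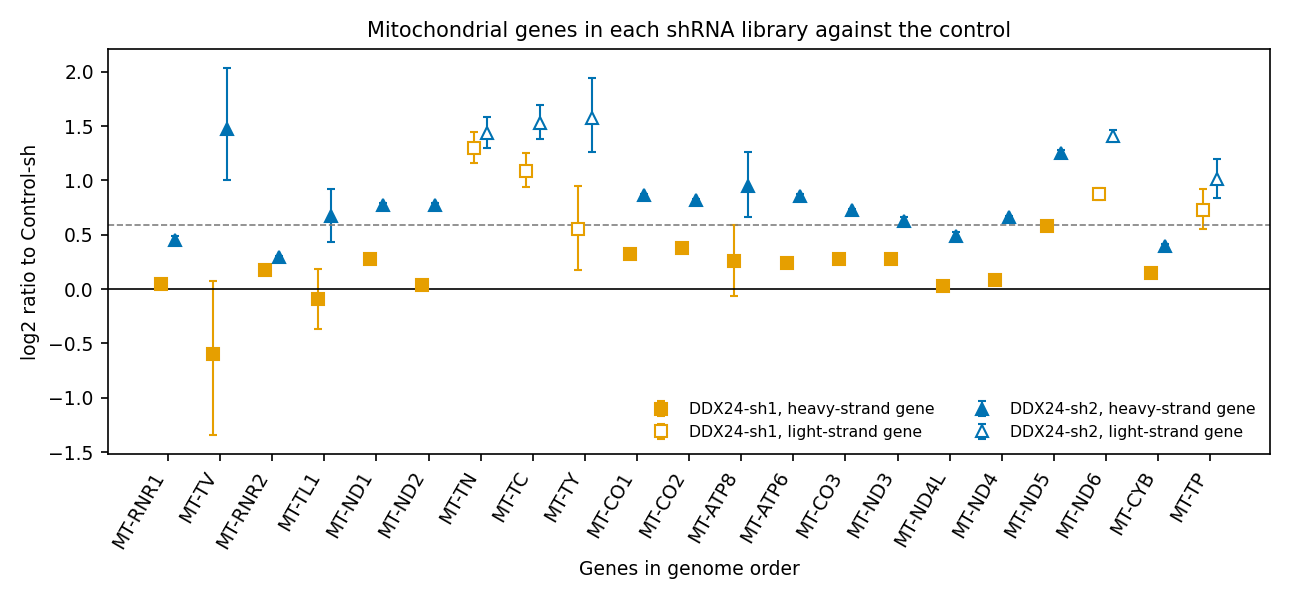
Log2 ratio to Control-sh (y axis) of the mitochondrial mRNA and rRNA genes and of tRNA genes with at least 100 counts in some library, in genome order, for DDX24-sh1 (squares) and DDX24-sh2 (triangles); open symbols are light-strand genes, bars are exact 95% counting intervals and the dashed line is 1.5-fold. All DDX24-sh2 points lie above 0, and MT-ND5 (1.25), MT-ND6 (1.41) and the light-strand tRNA genes lie above most other heavy-strand genes.

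The make-up of the mitochondrial mRNA changed accordingly. As a share of the counts of the 13 mRNAs, MT-ND6 went from 0.65% in Control-sh to 0.99% in DDX24-sh1 and 1.01% in DDX24-sh2, which is 1.52 and 1.54 times the control share. MT-ND5 went from 2.53% to 3.14% and 3.50%, or 1.24 and 1.38 times. MT-CYB went from 6.92% to 6.36% and 5.29%, or 0.92 and 0.77 times. MT-ND6 and MT-ND5 thus took a larger share, and MT-CYB a smaller one, in both libraries. MT-ND4L had 0.85 and 0.81 times its control share, and MT-CO1, which held 29.6% of mRNA counts in the control, 1.04 and 1.06 times. MT-ND2 had 0.86 times its control share in DDX24-sh1 and 0.99 times in DDX24-sh2.

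**Figure D3:**
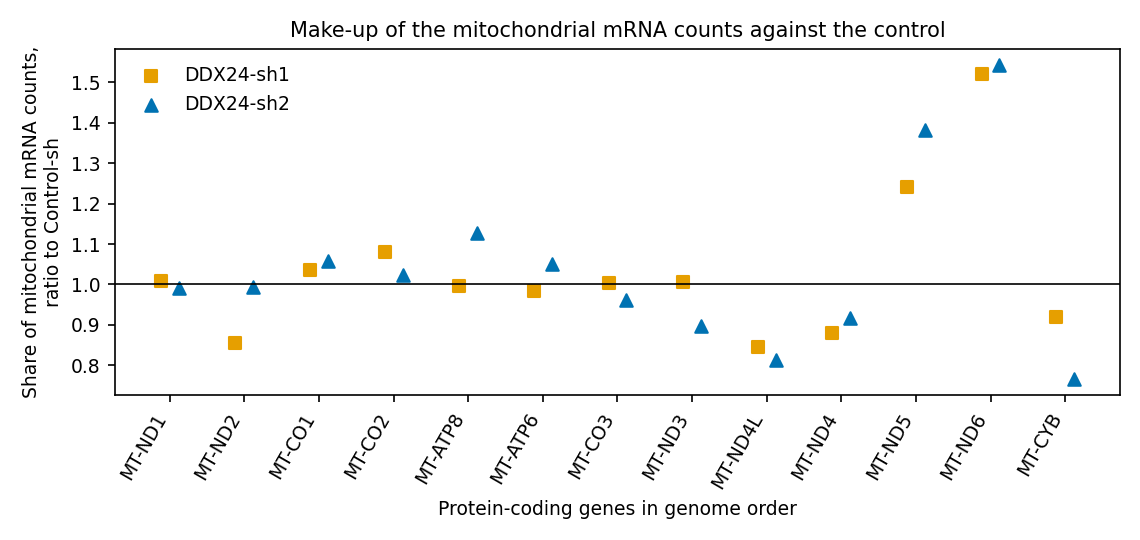
Share of the mitochondrial mRNA counts held by each of the 13 protein-coding genes, divided by its share in Control-sh (y axis, 1 = control), for DDX24-sh1 (squares) and DDX24-sh2 (triangles) in genome order. MT-ND5 and MT-ND6 stand highest, at 1.24 to 1.54, and MT-CYB in DDX24-sh2 lowest, at 0.77.

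Levels between genes were compared per length, as FPKM computed from the counts. In Control-sh the order was MT-CO3 (6831), MT-CO1 (6554), MT-CO2 (5639), MT-ATP6 (4292), MT-ND4 (2754) and MT-CYB (2071). Below these came MT-ND3 (1975), MT-ND4L (1854), MT-ND1 (1749) and MT-ND2 (1696), and then MT-ND5 (477), MT-ND6 (424) and MT-ATP8 (39.1). The genes of complex IV and MT-ATP6 led in all 3 libraries, and MT-ND5, MT-ND6 and MT-ATP8 came last in all 3. The first places were exchanged in DDX24-sh2, where MT-CO1 (11947) was above MT-CO3 (11311). MT-CYB went from the sixth place in Control-sh to the seventh in DDX24-sh1 and the ninth in DDX24-sh2. In DDX24-sh2 the levels of MT-ND5 and MT-ND6 were 1136 and 1128 FPKM and differed little.

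**Figure D4:**
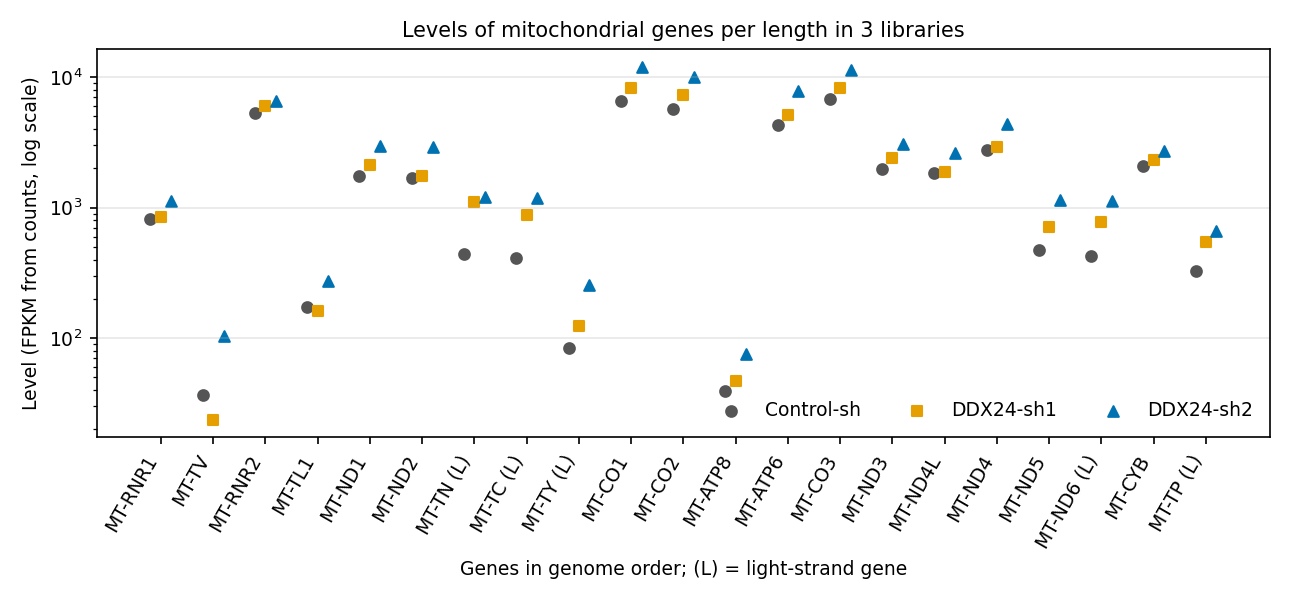
Level per gene length (FPKM computed from the counts, log scale) of the mitochondrial mRNA and rRNA genes and of tRNA genes with at least 100 counts in some library, in genome order, in Control-sh (circles), DDX24-sh1 (squares) and DDX24-sh2 (triangles). MT-CO1, MT-CO2, MT-CO3 and MT-ATP6 are the highest mRNAs, and MT-ATP8, at 39.1 to 75.8 FPKM, is the lowest of the 13.

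The rRNA genes encode the RNAs of the small (MT-RNR1) and large (MT-RNR2) subunits of the mitochondrial ribosome. They lie near the start of the heavy-strand precursor. MT-RNR1 (chrMT:648-1601) had 13502, 14710 and 19073 counts, a log2 ratio of 0.05 (0.01 to 0.08) and 0.46 (0.42 to 0.49). MT-RNR2 (chrMT:1671-3229) had 144231, 171159 and 181727 counts, a log2 ratio of 0.17 (0.16 to 0.18) and 0.29 (0.28 to 0.30). Neither reached 1.5-fold, and they differed from each other in opposite order in the shRNA libraries. With libraries scaled by TMM on all genes, MT-RNR1 and MT-ND2 in DDX24-sh1 differed from the control by no more than counting error. Both then leave the genes whose counting interval lay above the control in that library. The count of MT-RNR2 per count of MT-RNR1 was 10.7, 11.6 and 9.53. A ribosome holds these RNAs in equal number, and per length MT-RNR2 stood at 5342, 6019 and 6534 FPKM and MT-RNR1 at 817, 845 and 1121. How rRNA was reduced or polyadenylated RNA selected in these libraries is not given in the sources used here.

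Mitochondrial tRNAs are mostly shorter than the fragments that such libraries hold, so that counts on tRNA genes can come from precursors as well as from tRNAs. The light-strand tRNA genes printed above are given first. MT-TN had 562, 1462 and 1568 counts, a log2 ratio of 1.30 (1.16 to 1.45) and 1.43 (1.30 to 1.58). MT-TC had 468, 1052 and 1397 counts, a log2 ratio of 1.09 (0.94 to 1.25) and 1.53 (1.38 to 1.69). MT-TY had 96, 149 and 299 counts, a log2 ratio of 0.55 (0.18 to 0.94) and 1.58 (1.26 to 1.94). These 3 genes lie in a row between MT-ND2 and MT-CO1, around the origin from which the light strand is replicated. MT-TP, at the other end of the genome beside the control region, had 385, 674 and 801 counts, a log2 ratio of 0.73 (0.55 to 0.92) and 1.01 (0.84 to 1.19). MT-TA, the alanine tRNA gene that lies next to MT-TN on the same strand, was at 0 in Control-sh and under 10 counts in each library. For these 4 genes together the log2 ratio was 1.07 in DDX24-sh1. The other 18 tRNA genes, with 375 and 395 counts, most of them of MT-TL1, were level with the control as a sum after scaling. In DDX24-sh2 the other 18 had 955 counts.

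Among the heavy-strand tRNA genes, MT-TL1, the leucine tRNA gene between MT-RNR2 and MT-ND1, had most counts, with 224, 221 and 368. Its log2 ratio was -0.09 (-0.37 to 0.18) in DDX24-sh1 and 0.67 (0.43 to 0.92) in DDX24-sh2. MT-TV, the valine tRNA gene between the rRNA genes, had 44, 30 and 129 counts, a log2 ratio of -0.59 (-1.35 to 0.07) and 1.47 (1.01 to 2.04). The isoleucine gene MT-TI had 21, 10 and 43 counts and the methionine gene MT-TM 18, 13 and 31. For MT-TL1, MT-TV and MT-TM the difference of DDX24-sh1 from the control was within counting error, and for MT-TI its interval reached 0 (-2.40 to 0.00). MT-TT, the threonine tRNA gene after MT-CYB, had 3, 23 and 99 counts, a log2 ratio of 2.27 (1.14 to 5.24) and 4.31 (3.41 to 7.30), which rests on 3 counts in the control. Also on the heavy strand, MT-TG had 8, 10 and 52 counts, MT-TD 7, 12 and 38, MT-TH 13, 19 and 45, MT-TR 4, 8 and 22, MT-TL2 4, 10 and 17, and MT-TW 1, 2 and 14. On the light strand, MT-TE had 4, 10 and 43 counts and MT-TS1 5, 9 and 28. All of these low genes were highest in DDX24-sh2. The other 5 genes, MT-TF, MT-TQ, MT-TA, MT-TK and MT-TS2, had under 10 counts in every library. For MT-TF, MT-TQ, MT-TK and MT-TS2 no difference from the control was detectable at this depth. MT-TA had 0, 3 and 9 counts, and its counting interval lay above 0 in DDX24-sh2 only.

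Taken by strand, light-strand genes had 5381, 10805 and 14712 counts and heavy-strand genes 745965, 929039 and 1241000. The log2 ratio of light-strand genes was 0.93 (0.88 to 0.98) in DDX24-sh1 and 1.41 (1.36 to 1.45) in DDX24-sh2, against 0.24 and 0.69 for heavy-strand genes. Light-strand counts per 100 heavy-strand counts were 0.721 (0.702 to 0.741) in the control, 1.16 (1.14 to 1.19) and 1.19 (1.17 to 1.20). This ratio does not depend on the scaling of libraries, it was higher in both shRNA libraries than in the control, and the shRNA libraries did not differ in it beyond counting error. Within the tRNA class, light-strand genes had 1523, 3366 and 4148 counts (log2 ratio 1.07 and 1.40), and heavy-strand genes 363, 366 and 872 counts (-0.06 and 1.22). The strand is that of the annotation, and reads were assigned to genes by a procedure whose use of strand is not given.

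Nuclear genes of the same complexes were compared with the mitochondrial ones, each list being given by its median over members averaging 1 CPM or more. For the nuclear subunits of the respiratory complexes these medians were small, and few members reached 1.5-fold, as given below. For complex I, the median log2 ratio of 36 nuclear genes was 0.14 and 0.11, against 0.20 and 0.77 for the summed mitochondrial subunits. For complex III it was 0.13 and 0.10 (9 genes) against 0.15 and 0.40, and for complex IV 0.15 and 0.10 (11 genes) against 0.32 and 0.82. For complex V it was 0.21 and 0.17 (17 genes) against 0.24 and 0.86. In DDX24-sh2 the mitochondrial sum of each complex was thus above the median of its nuclear partners, and in DDX24-sh1 this gap was small for complexes I, III and V. A sum and a median are unlike measures, and genes with many counts weigh most in a sum. As medians over genes, the mitochondrial subunits of complex I had 0.27 and 0.77, and those of complex V 0.25 and 0.90. The gap for complex I in DDX24-sh1 was then wider. For complex IV in DDX24-sh1 the mitochondrial sum was also above the highest of the 11 nuclear genes (0.30). Complex II, succinate dehydrogenase, has no mitochondrial gene, and its 4 genes had a median of 0.11 and 0.05.

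In this and the following lists, genes are named as highest or lowest by the smaller of their 2 changes, among genes averaging 5 CPM or more whose ratios have the same sign in both libraries, so that other members can be higher or lower in 1 library. Members of these lists at least 1.5-fold higher were 1 of 36 for complex I and 1 of 17 for complex V in each shRNA library, and none for complexes II, III and IV. The backgrounds of 8.16% and 9.47% given above apply to these and the following lists at the filter of 1 CPM. Among all genes averaging 10 CPM or more, as most nuclear subunits did, they were lower, at 3.87% and 4.06%. In complex V this was ATP5ME, a small membrane subunit, with 134, 246 and 246 counts (0.79 and 0.82), followed by ATP5MG (0.56 and 0.47). ATP5MC2, of the rotating c ring (-0.05 and -0.02), and ATP5PO, of the stalk (0.05 and 0.02), were lowest by the rule for naming. In complex I the gene was NDUFV2, chosen here after its values were seen, with 11, 26 and 23 counts, and the 1 gene at least 1.5-fold lower was NDUFA13, chosen likewise, with 35, 18 and 18 counts. Among better measured genes of complex I, NDUFC2 (0.45 and 0.44) and NDUFB3 (0.39 and 0.43) were highest, and NDUFC1 (-0.13 and -0.03) and NDUFB11 (-0.02 and -0.24) lowest by that rule. In complex II, SDHD (0.20 and 0.47) and SDHC (0.22 and 0.19) form the membrane anchor, and SDHB (-0.03 and -0.13) carries iron-sulfur clusters. In complex III, UQCRB (0.24 and 0.22) and UQCRC2 (0.15 and 0.25) stood highest, and UQCRC1 (-0.15 and -0.22) and CYC1, cytochrome c1 (-0.12 and -0.04), lowest by that rule. In complex IV, COX6C (0.19 and 0.36) and NDUFA4 (0.16 and 0.17) stood highest, and COX4I1 (0.05 and 0.01) and COX6A1 (0.03 and 0.21) lowest by that rule, although COX6A1 was above the list's median in DDX24-sh2. Apart from NDUFV2 (0.91, with an interval from -0.07 to 2.21), no named nuclear subunit reached the mitochondrial sum of its complex in DDX24-sh2.

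**Figure D5:**
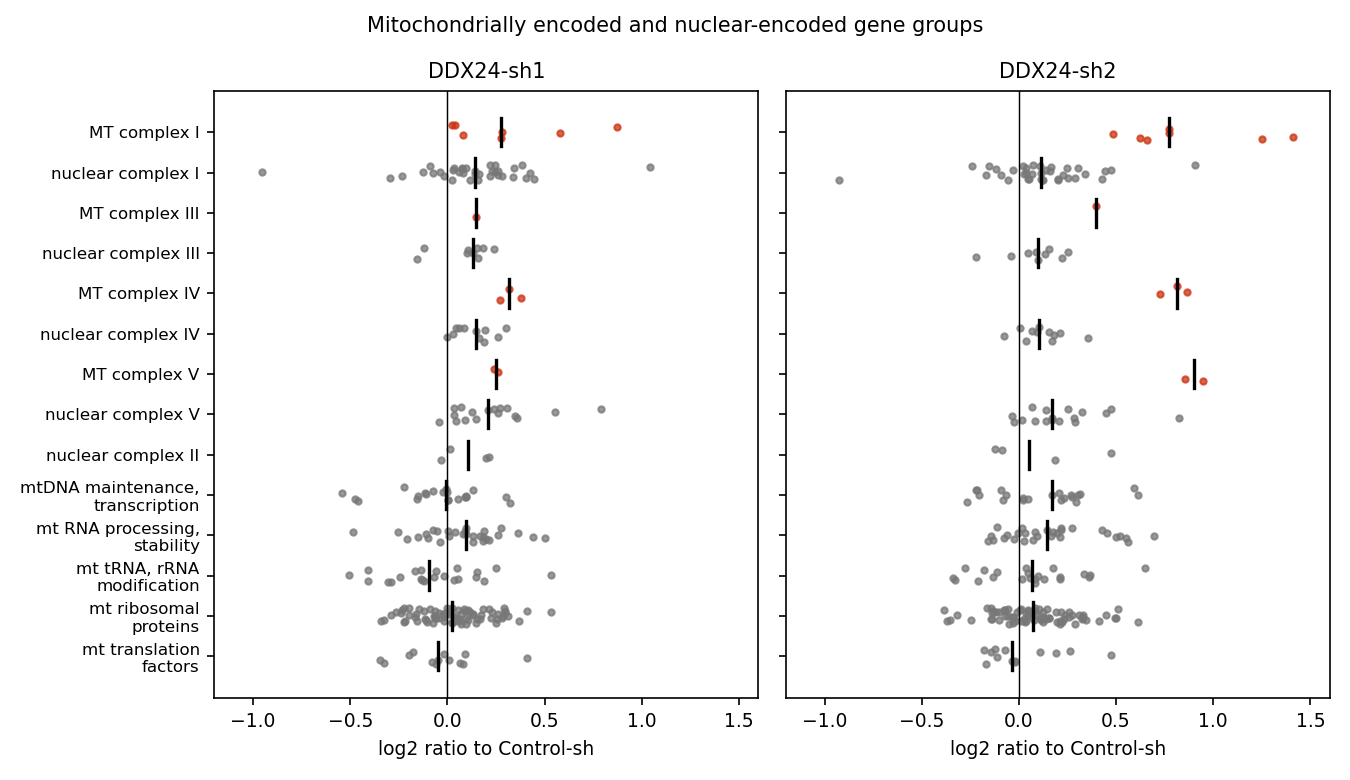
Log2 ratio to Control-sh of mitochondrially encoded (red) and nuclear-encoded (grey) genes averaging 1 CPM or more, by complex or function, in DDX24-sh1 (left) and DDX24-sh2 (right); points are genes and black bars medians. In DDX24-sh2 the mitochondrial genes of complexes I, III, IV and V lie from 0.40 to 1.41, while the medians of the nuclear lists lie between -0.04 and 0.17.

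The nuclear genes that maintain and transcribe mitochondrial DNA had a median log2 ratio of -0.01 and 0.17 over 21 genes, with none and 2 at least 1.5-fold higher. TFAM, which packages mitochondrial DNA and opens its promoters, had 1345, 1311 and 1562 counts, a log2 ratio of -0.11 (-0.22 to -0.001) and 0.17 (0.07 to 0.28). POLRMT, the mitochondrial RNA polymerase, had 1990, 2096 and 1956 counts, and its difference from the control was within counting error in both libraries. TFB2M, the factor that melts promoters with it, had 764, 690 and 737 counts (-0.22 and -0.09), and TEFM, the elongation factor, 186, 209 and 221 counts (0.09 and 0.20). For TEFM in both libraries and for TFB2M in DDX24-sh2 the difference from the control was also within counting error. None of these initiation and elongation genes changed by 1.5-fold. The genes past that size in DDX24-sh2 were MTERF1, a terminator protein that binds at the end of the rRNA genes (0.32 and 0.61), and POLG2, the accessory subunit of the DNA polymerase, named after its values were seen (-0.07 and 0.59). POLG, the catalytic subunit, had 0.30 and 0.23, and TOP1MT, the mitochondrial topoisomerase (-0.48 and -0.27), and NRF1, a transcription factor of nuclear mitochondrial genes (-0.54 and -0.21), were lowest by that rule.

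Among 29 genes for processing and stability of mitochondrial RNA, the median was 0.10 and 0.15, with none and 1 at least 1.5-fold higher. That gene was FASTKD2, a protein of mitochondrial RNA granules needed for the large rRNA, with 625, 893 and 1044 counts (0.44 and 0.70). FASTKD5, which serves the processing of mRNA ends not flanked by tRNAs, had 863, 1168 and 1258 counts, a log2 ratio of 0.36 (0.23 to 0.49) and 0.50 (0.37 to 0.63). RCC1L, also called WBSCR16, had 0.50 and 0.43. LRPPRC and SLIRP form the complex that stabilizes mitochondrial mRNAs, and their ratios had opposite signs. LRPPRC had 6560, 5792 and 6482 counts (-0.25 and -0.06), and SLIRP 875, 982 and 1045 counts (0.09 and 0.21). For SLIRP in DDX24-sh1 the difference from the control was within counting error. GRSF1, which binds G-rich light-strand transcripts, had 2217, 2625 and 2578 counts (0.17 in each). TRNT1, which adds the CCA end to tRNAs (-0.48 and -0.14), and PTCD2 (-0.21 and -0.08) were lowest by the rule given above, although LRPPRC was below PTCD2 in DDX24-sh1.

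Genes that serve translation in mitochondria stayed near the control as lists. MRPL58 was on the lists of ribosomal proteins and of translation factors. The median log2 ratio of 77 mitochondrial ribosomal protein genes was 0.02 and 0.07, with none and 1 at least 1.5-fold higher, the latter MRPS25, named after its values were seen (0.23 and 0.61). MRPL39 (0.41 and 0.33) and MRPS22 (0.31 and 0.51) were highest by the rule, and MRPS18B (-0.29 and -0.25) and MRPL10 (-0.24 and -0.35) lowest. For 22 genes that modify tRNA and rRNA the median was -0.09 and 0.07. MTFMT, which formylates the initiator methionine, had 0.53 and 0.65 and was the 1 gene past 1.5-fold in DDX24-sh2, and QTRT1, of queuosine synthesis, had 0.15 and 0.37. OSGEPL1 (-0.41 and -0.33) and PUS1, a pseudouridine synthase (-0.29 and -0.34), were lowest by that rule. For 13 translation factors the median was -0.05 and -0.04 and none passed 1.5-fold. GFM2 (0.41 and 0.47) and MTRF1L (0.07 and 0.19) were highest, and MTIF2 (-0.34 and -0.18) and MRRF (-0.20 and -0.12) lowest by it.

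Pieces of mitochondrial DNA were inserted into the nuclear chromosomes in evolution, and reads of the mitochondrial genes can match such copies. The count tables list 407 annotated copies, of which 33 had any count and 3 had at least 50 counts. These 3 lie close together near the start of chromosome 1 (GRCh38): MTND2P28 (chr1:629640-630683), MTCO1P12 (chr1:631074-632616) and MTATP6P1 (chr1:633696-634376). MTATP6P1 had 5320, 6612 and 7175 counts, a log2 ratio of 0.24 (0.19 to 0.29) and 0.39 (0.34 to 0.44). MTND2P28 had 1756, 2165 and 3376 counts, a log2 ratio of 0.23 and 0.90, and MTCO1P12 had 448, 678 and 882 counts, a log2 ratio of 0.52 and 0.93. All copies together had 1.01%, 1.01% and 0.916% of the mitochondrial counts, so adding them could change the class values little. Of 64 values of single genes, 1 moved by more than its counting interval when the copies were added. This was the ratio of MT-ATP6 in DDX24-sh2, which became smaller. MTATP6P1 differs at 10 of 681 aligned bases, and the copies are 98.5%, 98.2% (MTND2P28) and 98.6% (MTCO1P12) identical to their mitochondrial gene, with identical stretches of up to 141, 266 and 245 bases, and counts of a gene and its copy are uncertain to that extent. The 90 bases of MT-ATP6 at chrMT:8629-8718 and of MTATP6P1 at chr1:633798-633887 (both plus strand, GRCh38, from GENCODE 29 transcripts) show how alike they are, with the 4 bases that differ in capitals.
MT-ATP6: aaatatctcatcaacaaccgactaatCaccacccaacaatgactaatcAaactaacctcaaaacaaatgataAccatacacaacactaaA
MTATP6P1: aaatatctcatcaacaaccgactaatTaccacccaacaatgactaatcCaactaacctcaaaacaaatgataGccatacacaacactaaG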

How the data were processed

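For each library the authors deposited raw counts per gene (whole numbers, no normalization) and FPKM per gene. The submitters' processing notes name TopHat2 2.0.9, Bowtie2 2.0.6, Cufflinks 2.1.1 and Cuffdiff 2.1.1 without roles. The counter, strand setting and treatment of reads with several matches are not given in the sources used here. Genes match GENCODE 29 (GRCh38) coordinates.

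Groups came from the sample labels. Counts were scaled by TMM (edgeR 4.0.16, R 4.3.3) on genes averaging 1 CPM or more (factors 1.01, 0.995 and 1.00). Log2 ratios of CPM used a prior count of 2, and intervals are exact 95% conditional binomial (Clopper-Pearson) intervals. No molecular identifiers were used, so reads need not be independent molecules. With 1 library per condition no count model or p-value was used, and genes were called by a 1.5-fold size. The steps were tested on simulated data.

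The members and gene lists were chosen with earlier results of these data known. Named were all mRNA and rRNA genes, tRNA genes with at least 10 counts in some library, nuclear copies with at least 50 counts, 9 fixed nuclear genes, and of each nuclear list the 2 highest and 2 lowest by the smaller change, averaging 5 CPM or more and having the same sign in both libraries. Anticodons were located as the middle of a 7-base loop closed by a stem, where the matching codon stands for the gene's amino acid, and the 4 printed had 1 candidate each. Alternatives were DESeq2 1.42.0 size factors, total counts, TMM without mitochondrial genes, a prior count of 0.5, the log2 of FPKM plus 0.1, added nuclear copies and other filters and thresholds.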

Additional observations from a re-analysis of the deposited data

Results flagged for a closer look

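For 4 heavy-strand tRNA genes the log2 ratio to Control-sh was below 0 in DDX24-sh1 and above 0 in DDX24-sh2, and the difference between the shRNA libraries was not tested, since each is a single library. MT-TV had -0.59 in DDX24-sh1 and 1.47 in DDX24-sh2. MT-TL1 had -0.09 and 0.67, MT-TM had -0.48 and 0.68, and MT-TI went from 21 to 10 counts in DDX24-sh1 and had 0.93 in DDX24-sh2. Apart from MT-TL1, these genes had 44 counts or fewer in Control-sh. In DDX24-sh1 the counting interval lay below 0 for none of the 37 genes, and no share over all genes was taken for this.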

How the results depend on the processing

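No paired analysis was possible because each group has 1 library. Of 678 alternative values, 515 stayed within a set limit, 160 moved beyond it and 3 reversed. The limit was the counting interval for log2 ratios and a factor of 1.5 for counts of calls. For medians of nuclear lists it was the typical interval of their members. The reversals were values whose counting interval lay above 0 and that turned negative. All used the FPKM with the shRNA names as given, in DDX24-sh2: MT-TL1 -0.11, MT-TV -0.64 and MT-TI -1.15. With these names the sign also turned for the same genes in DDX24-sh1 and for MT-TM in both libraries. There the counting intervals covered 0, and these turns are not among the reversals. The 60 values of nuclear list medians moved by less than the typical interval of their members. Log2 ratios in DDX24-sh1 and DDX24-sh2 under the alternatives that moved them were as follows. With DESeq2 size factors all 37 genes had 0.236 and 0.669, protein-coding genes 0.256 and 0.756, and rRNA genes 0.150 and 0.277. The FPKM with shRNA names exchanged, chosen after seeing the data, gave these same values. With total counts all 37 had 0.232 and 0.689, protein-coding genes 0.252 and 0.776, and rRNA genes 0.146 in DDX24-sh1. TMM without mitochondrial genes gave 0.242 and 0.692 for all 37 and 0.261 and 0.779 for protein-coding genes. TMM on all genes, added after seeing the data, gave 0.223 and 0.660 for all 37, 0.243 and 0.747 for protein-coding genes, and 0.137 and 0.268 for rRNA genes. Per nuclear protein-coding counts, DDX24-sh2 had 0.733 for all 37, 0.819 for protein-coding genes and 0.340 for rRNA genes. FPKM with names as given gave 0.669 and 0.236 for all 37, 0.756 and 0.256 for protein-coding genes, 0.277 and 0.150 for rRNA genes, and 1.34 and 0.897 for tRNA genes. Without MT-CO1 protein-coding genes had 0.246 and 0.749. In DDX24-sh1 the tRNA class had 1.07 over MT-TN, MT-TC, MT-TY and MT-TP alone and 4.68e-06 without them, both added after seeing the data, so its ratio there rests on these 4 genes. Mitochondrial genes called higher, 6 and 24, of 28, became 3 and 12 at 2-fold, 11 and 29 of 37 with no filter, 4 and 16 of 20 for genes averaging 10 CPM or more, and 1 and 10 of 14 at 100 CPM (added after seeing the data). Over all genes, 1141 and 1324 calls of 13985 became 351 and 442 at 2-fold, 4002 and 4777 of 58735 with no filter (6.81% and 8.13%), 374 and 392 of 9660 at 10 CPM (3.87% and 4.06%), and 62 and 57 of 2127 at 100 CPM (2.91% and 2.68%). Beyond the exchange of names, whose effect follows from its construction, the cause of these moves was not tested. Counting error is widest for the tRNA genes and MT-ATP8; the spread between cultures is unknown for every gene.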
